A study of Mus musculus with 13 samples.

Results

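Transcripts of 41 genes that encode collagens, laminins and other extracellular matrix proteins, and the enzymes that crosslink them, were followed in RNA sequencing of mouse brain tissue. The genes were listed by name in 6 subclasses, and all 41 were found among the 55416 gene identifiers of the count table and passed the filter on low counts. The subclasses were fibrillar collagens (5 genes), other interstitial collagens (5), basement membrane (16), small leucine-rich proteoglycans (4), elastic fibre and crosslinking (8) and other matrix glycoproteins (3).

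The 13 libraries formed 4 groups. KO hypoxia (n = 4) and KO normoxia (n = 3) mice carried Slco1c1-iCreERT2 and Pdcd10fl/fl and received 50 µg of 4-hydroxytamoxifen on postnatal day 1. This removes Pdcd10, also called Ccm3, from brain endothelial cells and models cerebral cavernous malformation, a disease of enlarged, leaky brain vessels. Flox hypoxia (n = 3) and flox normoxia (n = 3) mice were littermates with Pdcd10fl/fl and no Cre. Hypoxia was 12% oxygen for 7 days and normoxia was 21% oxygen, and both genotypes carried the floxed alleles. The age at which the oxygen exposure began is not given in the sources used here. Whether the flox mice were injected is not stated, so loss of Pdcd10, the Cre transgene and the injection cannot be told apart.

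Each library held between 42090437 and 71216636 counts. Pdcd10 in whole tissue had a log2 fold change of -0.09 ± 0.07 (SE, edgeR adjusted p = 0.47) in hypoxia and -0.02 ± 0.07 (SE, edgeR adjusted p = 0.962) in normoxia. A deletion in endothelial cells alone need not show in whole tissue, so this does not check the labels. All 13 libraries are labelled male, yet Xist was present and Y-linked transcripts were absent or nearly so in 4 of them (2 KO hypoxia, 1 KO normoxia, 1 flox normoxia). Within KO hypoxia, replicate 1 stood apart, with the highest value of the 4 libraries for 34 of the 41 genes and a summed level of 5 erythroid markers of 17392 CPM, against at most 4164 CPM in the other KO hypoxia libraries. Choroid plexus markers summed to 13.5 CPM in KO normoxia replicate 2, against between 322 and 536 CPM in the other libraries, and the part of these differences in the results was not tested beyond leaving out each library.

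Brain parenchyma holds little fibrous collagen, and most of its conventional matrix lies in the basement membranes around vessels, built from collagen IV, laminins, nidogens and perlecan. Fibrillar collagens, small leucine-rich proteoglycans and elastic fibres are made mainly by fibroblasts of the meninges and of larger vessels and by mural cells. Endothelial cells and pericytes contribute chains of the vascular basement membrane, and astrocytes contribute others. In bulk tissue, fewer cells of a type and less RNA per cell cannot be told apart, and the same holds for more.

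In hypoxia, 31 of the 41 matrix genes rose in KO brains and none fell, beside 6.78% of all 22507 genes tested that rose and 2.28% that fell. In normoxia 10 rose and none fell, beside 1.96% and 0.369% of all genes. A gene was called when its adjusted p in edgeR's quasi-likelihood test was under 0.05. All 10 genes called in normoxia were also called in hypoxia. The median log2 fold change over the 41 genes was 0.82 in hypoxia and 0.42 in normoxia, against -0.01 and 0.00 over all genes tested. Every KO library lay above every flox library for 31 genes in hypoxia, where 11.5% of all genes did, and for 23 genes in normoxia, where 10.5% did. For none of the 41 genes did every KO library lie below, where 9.37% of all genes did in hypoxia and 8.7% in normoxia. Without KO hypoxia replicate 1, 30 genes rose in hypoxia with a median of 0.68, and 18 rose in normoxia, a contrast that this library enters only through the shared estimate of spread. The normoxia count was 6 without flox normoxia replicate 1 and 5 without KO normoxia replicate 1.

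**Figure D1:**
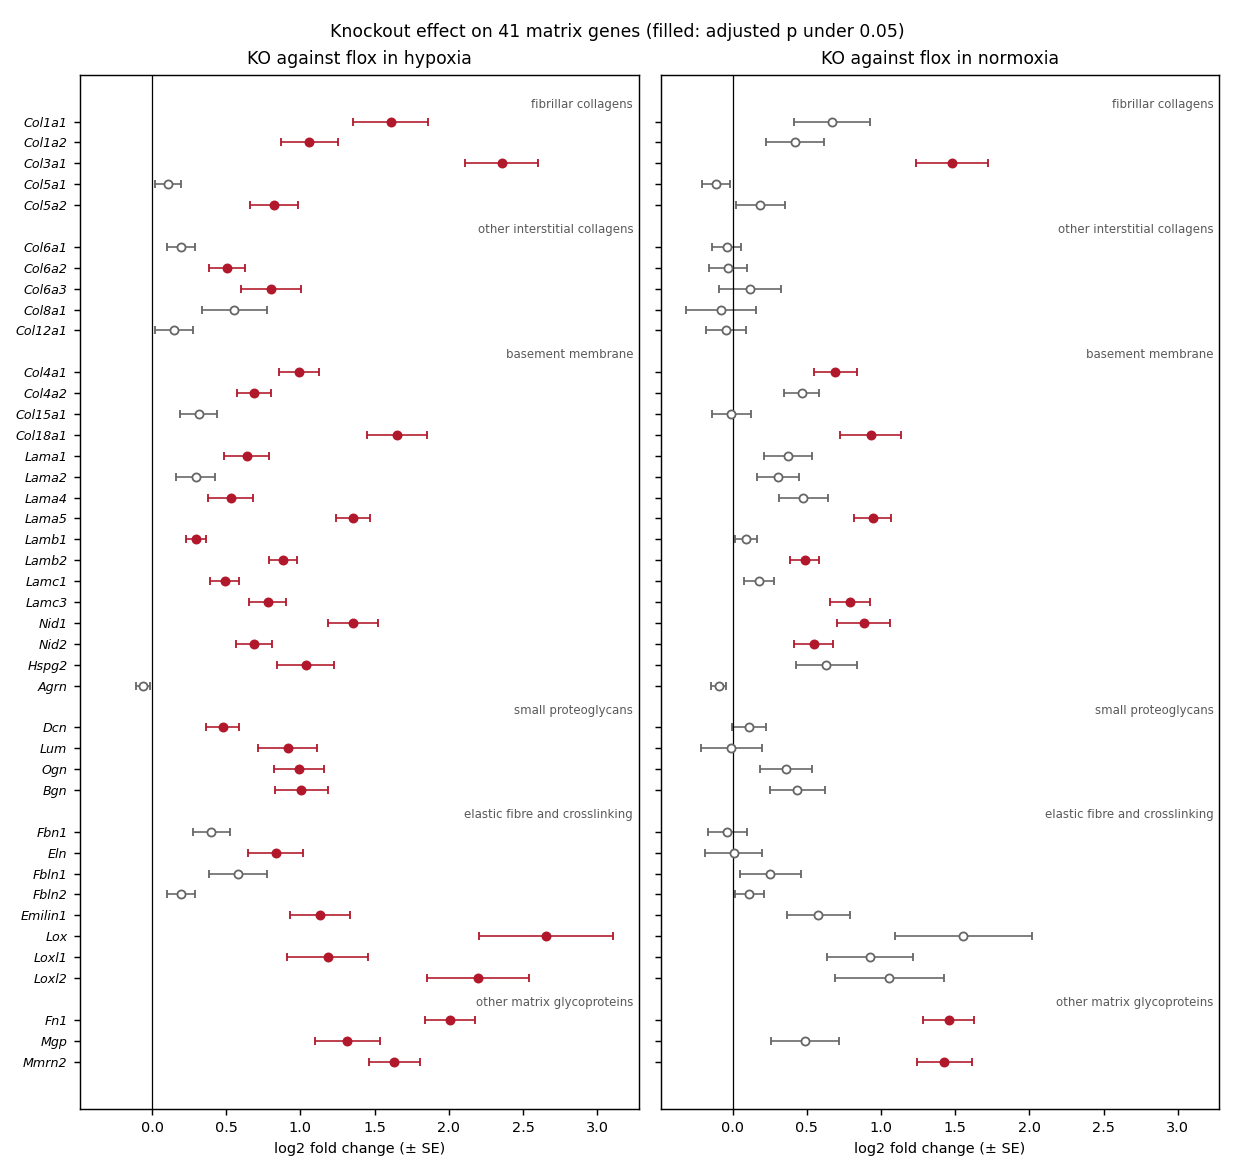
Log2 fold changes of KO over flox (x axis, with SE bars) for the 41 matrix genes (y axis, by subclass), in hypoxia (left panel) and in normoxia (right panel). Filled points passed an edgeR adjusted p of 0.05, 31 in hypoxia and 10 in normoxia, and none of them lies left of 0.

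RefSeq promoter windows of the GRCm38.p6 build, 250 bases before the annotated start, were at hand for 24 of the 41 genes. Those of 4 genes are shown because Col3a1, Lama5, Nid1 and Hspg2 are the fibrillar collagen, laminin, nidogen and perlecan genes whose changes stand out below. Bases that overlap a GENCODE exon were left off. Capitals mark the TATA box core (TATAAA), the CCAAT box, the GC box (letters GGGCGG) and an element bound by KLF factors (CACCC), searched on both strands, so that a match on the other strand appears as its reverse complement.

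Col3a1, chr1:45311288-45311537, plus strand: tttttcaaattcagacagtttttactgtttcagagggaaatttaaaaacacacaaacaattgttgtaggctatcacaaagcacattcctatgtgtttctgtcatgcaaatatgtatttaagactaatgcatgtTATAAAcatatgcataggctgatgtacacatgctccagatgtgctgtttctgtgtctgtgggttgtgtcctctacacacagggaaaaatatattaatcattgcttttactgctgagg

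Lama5, chr2:180225860-180226109, minus strand: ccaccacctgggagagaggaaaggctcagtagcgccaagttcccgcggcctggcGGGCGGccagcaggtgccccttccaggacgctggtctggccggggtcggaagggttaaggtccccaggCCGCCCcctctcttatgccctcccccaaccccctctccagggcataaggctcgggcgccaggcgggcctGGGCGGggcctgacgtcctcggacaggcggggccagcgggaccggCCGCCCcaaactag

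Nid1, chr13:13437352-13437550, plus strand: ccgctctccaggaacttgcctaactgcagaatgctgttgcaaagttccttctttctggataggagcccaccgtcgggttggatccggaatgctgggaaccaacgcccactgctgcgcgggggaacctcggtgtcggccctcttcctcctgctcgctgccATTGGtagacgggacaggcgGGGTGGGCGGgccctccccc

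Hspg2, chr4:137468553-137468768, plus strand: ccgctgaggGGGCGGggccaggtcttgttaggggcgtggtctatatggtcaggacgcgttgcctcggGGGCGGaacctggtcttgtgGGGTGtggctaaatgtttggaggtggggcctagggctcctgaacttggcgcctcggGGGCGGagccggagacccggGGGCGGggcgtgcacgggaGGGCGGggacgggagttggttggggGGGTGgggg

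The window of Col3a1 held 35.2% G and C and 1 TATAAA, at position -117 from the annotated start. Whether it acts as a TATA box was not tested. The windows of Lama5, Nid1 and Hspg2 held 72.4%, 63.8% and 70.8% G and C, against a median of 52.4% over 32851 windows. In the window of Nid1 a CACCC match overlaps the GGGCGG. Over the 24 genes, GGGCGG was found in 14 (58.3%), against 32.7% of all windows, and CACCC in 18 (75%), against 52%. TATAAA was found in 2 (8.33% against 12.4% of all windows), CCAAT in 6 (25% against 33.8%) and ACGTG, the core of the hypoxia response element, in 3 (12.5% against 16.6%). These matches describe the letters of the windows and were set against no test.

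Fibrillar collagens form the rope-like fibres of connective tissue, and 4 of the 5 genes rose in KO brains in hypoxia, against 1 in normoxia. The median log2 fold change of the 5 genes was 1.06 in hypoxia and 0.42 in normoxia, and without KO hypoxia replicate 1 the normoxia count was 2. Col3a1, the alpha 1 chain of collagen III, changed most. Col3a1 had 29.0, 13.3, 21.5 and 16.1 CPM in KO hypoxia libraries, against 3.38, 3.92 and 4.47 CPM in flox hypoxia libraries. At 21% oxygen Col3a1 had 15.7, 13.1 and 13.2 CPM in KO libraries, against 4.42, 3.93 and 6.66 CPM in flox libraries. At both oxygen levels every KO library lay above every flox library. Its log2 fold change was 2.36 ± 0.24 (SE, edgeR adjusted p = 2.9e-05) in hypoxia and 1.48 ± 0.24 (SE, edgeR adjusted p = 0.00364) in normoxia.

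Col1a1 and Col1a2 encode the chains of collagen I. In hypoxia Col1a1 stood at 44.7, 17.3, 29.7 and 20.9 CPM in KO libraries, against 8.32, 9.62 and 9.89 CPM in flox libraries. In normoxia Col1a1 had 25.3, 18.3 and 19.0 CPM in KO libraries, against 12.2, 11.5 and 15.6 CPM in flox libraries. The KO libraries were higher without overlap at both oxygen levels, with replicate 1 far above the other KO hypoxia libraries. The log2 fold change of Col1a1 was 1.61 ± 0.25 (SE, edgeR adjusted p = 0.000736) in hypoxia and 0.67 ± 0.26 (SE, edgeR adjusted p = 0.247) in normoxia, where it was not called. Col1a2 had 46.4, 24.0, 33.7 and 27.8 CPM in KO hypoxia libraries, against 16.1, 14.3 and 17.2 CPM in flox hypoxia libraries. At 21% oxygen Col1a2 had 31.3, 23.9 and 24.8 CPM in KO libraries, against 20.5, 15.6 and 23.6 CPM in flox libraries. The groups did not overlap here either, although the highest flox normoxia library nearly reached the lowest KO normoxia library. Col1a2 had a log2 fold change of 1.06 ± 0.19 (SE, edgeR adjusted p = 0.00198) in hypoxia and 0.42 ± 0.20 (SE, edgeR adjusted p = 0.366) in normoxia. Col5a2, a chain of collagen V that co-assembles with collagen I, rose in hypoxia by 0.82 ± 0.16 (SE, edgeR adjusted p = 0.00363) and had 0.19 ± 0.17 (SE, edgeR adjusted p = 0.699) in normoxia. Its partner chain Col5a1 was not called, at 0.11 ± 0.09 (SE, edgeR adjusted p = 0.525) in hypoxia and -0.11 ± 0.10 (SE, edgeR adjusted p = 0.672) in normoxia.

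Per length, Col3a1 was at between 0.434 and 0.515 of the Col1a1 RPKM in KO hypoxia libraries, against between 0.272 and 0.302 in flox hypoxia libraries. In normoxia the ratio was between 0.416 and 0.480 in KO libraries, against between 0.228 and 0.286 in flox libraries. The ranges did not overlap. The exact two-sided permutation test gave p = 0.0571 in hypoxia and p = 0.1 in normoxia, the smallest values that 4 against 3 and 3 against 3 libraries allow, and 0.1 for both when adjusted over the 8 ratios and shares tested. Ranges that do not overlap fix p at these values, so the test adds nothing to the ranges. Ratios of Col1a1 to Col1a2, Lama5 to Lama4 and Nid2 to Nid1, and laminin shares other than that of Lama5, were computed but not tested.

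Of the 5 other interstitial collagens, 2 rose in hypoxia and none passed the test in normoxia, with medians of 0.51 and -0.04. Without KO hypoxia replicate 1 the hypoxia values ran from -0.02 (Col12a1) to 0.76 (Col6a3), with Col8a1 in the middle at 0.27. Leaving out KO hypoxia replicate 3, or flox hypoxia replicate 2 or 3, brought the hypoxia count to 1, and leaving out flox hypoxia replicate 1 brought it to 0. Both that rose belong to collagen VI, which forms beaded filaments between cells and basement membranes. Col6a2 had 0.51 ± 0.12 (SE, edgeR adjusted p = 0.0151) in hypoxia and -0.03 ± 0.13 (SE, edgeR adjusted p = 0.957) in normoxia. In hypoxia Col6a3 stood at 7.18, 7.10, 7.74 and 4.41 CPM in KO libraries, against 3.14, 4.80 and 3.49 CPM in flox libraries. In normoxia Col6a3 had 6.35, 4.16 and 5.84 CPM in KO libraries, against 5.83, 4.62 and 4.53 CPM in flox libraries. The KO and flox libraries overlapped in both conditions. Col6a3 had a log2 fold change of 0.80 ± 0.20 (SE, edgeR adjusted p = 0.0197) in hypoxia and 0.12 ± 0.21 (SE, edgeR adjusted p = 0.87) in normoxia, and its call in hypoxia was lost without flox hypoxia replicate 1, flox hypoxia replicate 3 or KO hypoxia replicate 3. The call was also lost in both limma fits. Col6a1, the most abundant gene of the subclass by RPKM, was not called, at 0.20 ± 0.09 (SE, edgeR adjusted p = 0.222) and -0.04 ± 0.10 (SE, edgeR adjusted p = 0.915) in hypoxia and normoxia.

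Col8a1 had 14.2, 6.79, 8.62 and 7.21 CPM in KO hypoxia libraries, against 4.94, 6.77 and 7.19 CPM in flox hypoxia libraries. At 21% oxygen Col8a1 had 5.53, 5.57 and 4.19 CPM in KO libraries, against 5.69, 5.72 and 4.80 CPM in flox libraries. Col8a1, a short-chain collagen of vessel walls, thus had its highest value in KO hypoxia replicate 1, and the groups overlapped in both conditions. Col8a1 had a log2 fold change of 0.55 ± 0.22 (SE, edgeR adjusted p = 0.131) in hypoxia and -0.08 ± 0.23 (SE, edgeR adjusted p = 0.931) in normoxia. Col12a1, which lies on the surface of collagen fibres, had 0.15 ± 0.13 (SE, edgeR adjusted p = 0.541) in hypoxia and -0.04 ± 0.13 (SE, edgeR adjusted p = 0.933) in normoxia and was not called in either.

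The basement membrane genes carried most of the normoxia calls. Of 16 genes, 13 rose in KO brains in hypoxia and 7 in normoxia, none fell, and the medians were 0.69 and 0.48. The normoxia count was 3 and 4 without flox normoxia replicates 1 and 2, and 2 and 4 without KO normoxia replicates 1 and 2. Of the 7 normoxia calls, those of Lama5 and Lamc3 were kept in all 13 fits that leave out 1 library, that of Nid1 in 11, those of Col18a1 and Lamb2 in 10, that of Col4a1 in 9 and that of Nid2 in 6. The normoxia call of Nid2 was also lost in both limma fits, as was that of Col18a1. In the 9 libraries with Y-linked transcripts the normoxia calls of Col18a1 (edgeR adjusted p = 0.0633) and Lamb2 (edgeR adjusted p = 0.0552) were lost. Their summed level was between 804 and 1098 CPM in KO hypoxia libraries, against between 605 and 674 CPM in flox hypoxia libraries, and between 701 and 729 CPM in KO normoxia libraries, against between 555 and 634 CPM in flox normoxia libraries. The ranges did not overlap within either oxygen level.

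Col4a1 and Col4a2 encode the chains of the common collagen IV network, and their genes lie head to head. In RefSeq on GRCm38.p6 their annotated starts overlap by 22 bases, at chr8:11312805-11312826. In hypoxia Col4a1 stood at 216, 136, 154 and 137 CPM in KO libraries, against 85.5, 71.2 and 85.8 CPM in flox libraries. In normoxia Col4a1 had 97.9, 102 and 91.9 CPM in KO libraries, against 63.3, 51.6 and 65.9 CPM in flox libraries. Every KO library lay above every flox library, with replicate 1 the highest in KO hypoxia. Col4a1 had a log2 fold change of 0.99 ± 0.14 (SE, edgeR adjusted p = 0.00025) in hypoxia and 0.69 ± 0.14 (SE, edgeR adjusted p = 0.0161) in normoxia. Col4a2 had 171, 117, 129 and 116 CPM in KO hypoxia libraries, against 83.9, 74.2 and 90.3 CPM in flox hypoxia libraries. At 21% oxygen Col4a2 had 99.3, 92.5 and 88.1 CPM in KO libraries, against 73.4, 61.0 and 68.4 CPM in flox libraries. Here too the genotypes did not overlap. Col4a2 had 0.69 ± 0.11 (SE, edgeR adjusted p = 0.00102) in hypoxia and 0.46 ± 0.12 (SE, edgeR adjusted p = 0.0562) in normoxia, just short of the threshold. Col4a1 RPKM divided by Col4a2 RPKM was between 1.03 and 1.12 in KO hypoxia libraries, against between 0.843 and 0.904 in flox hypoxia libraries. The same ratio was between 0.874 and 0.983 in KO normoxia libraries, against between 0.750 and 0.853 in flox normoxia libraries, and its exact permutation p was again the smallest possible in each condition (0.0571 and 0.1).

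Col18a1 and Col15a1 encode the multiplexins, collagens that carry heparan or chondroitin sulfate chains. In hypoxia Col18a1 stood at 24.2, 13.6, 17.5 and 12.2 CPM in KO libraries, against 5.63, 4.57 and 5.95 CPM in flox libraries. In normoxia Col18a1 had 14.1, 12.0 and 12.6 CPM in KO libraries, against 5.49, 7.44 and 7.38 CPM in flox libraries. The genotypes were apart in both conditions. Col18a1, the source of endostatin, rose by 1.65 ± 0.20 (SE, edgeR adjusted p = 9.1e-05) in hypoxia and 0.93 ± 0.20 (SE, edgeR adjusted p = 0.0229) in normoxia. Col15a1 had 5.70, 4.92, 6.53 and 5.02 CPM in KO hypoxia libraries, against 4.57, 4.29 and 4.54 CPM in flox hypoxia libraries. At 21% oxygen Col15a1 had 4.81, 5.52 and 4.27 CPM in KO libraries, against 4.78, 4.48 and 5.46 CPM in flox libraries. The KO hypoxia libraries lay above the flox hypoxia libraries, while the normoxia groups overlapped. Col15a1 was not called, with a log2 fold change of 0.31 ± 0.12 (SE, edgeR adjusted p = 0.134) in hypoxia and -0.01 ± 0.13 (SE, edgeR adjusted p = 0.988) in normoxia.

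Laminins are trimers of an alpha, a beta and a gamma chain, and Lama5 and Lama4 are the alpha chains of endothelial basement membranes. In hypoxia Lama5 stood at 56.3, 42.5, 42.9 and 35.6 CPM in KO libraries, against 18.3, 15.5 and 18.3 CPM in flox libraries. In normoxia Lama5 had 27.7, 29.8 and 28.3 CPM in KO libraries, against 14.2, 15.3 and 15.1 CPM in flox libraries. The lowest KO library was far above the highest flox library at each oxygen level. Lama5 rose by 1.35 ± 0.12 (SE, edgeR adjusted p = 7.31e-06) in hypoxia and 0.94 ± 0.12 (SE, edgeR adjusted p = 0.00053) in normoxia. Lama4 had 19.5, 12.8, 15.4 and 12.7 CPM in KO hypoxia libraries, against 10.4, 9.97 and 11.0 CPM in flox hypoxia libraries. At 21% oxygen Lama4 had 10.2, 11.6 and 9.92 CPM in KO libraries, against 6.01, 7.21 and 9.52 CPM in flox libraries. KO and flox did not overlap, but the flox normoxia libraries were widely spread. Lama4 had a log2 fold change of 0.53 ± 0.15 (SE, edgeR adjusted p = 0.0411) in hypoxia and 0.48 ± 0.17 (SE, edgeR adjusted p = 0.188) in normoxia, and the call in hypoxia was kept in 5 of the 13 fits that leave out 1 library.

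Lama2 and Lama1 are alpha chains that astrocytes, pericytes and meningeal cells supply to the outer layers of the vessel wall. In hypoxia Lama2 stood at 21.3, 13.9, 16.6 and 14.3 CPM in KO libraries, against 11.6, 13.4 and 15.6 CPM in flox libraries. In normoxia Lama2 had 14.1, 16.4 and 16.3 CPM in KO libraries, against 12.9, 12.0 and 12.99 CPM in flox libraries. The groups overlapped in hypoxia and not in normoxia. Lama2 was not called in either, at 0.29 ± 0.13 (SE, edgeR adjusted p = 0.194) in hypoxia and 0.30 ± 0.14 (SE, edgeR adjusted p = 0.351) in normoxia. Lama1 rose in hypoxia by 0.64 ± 0.15 (SE, edgeR adjusted p = 0.0135) and had 0.37 ± 0.16 (SE, edgeR adjusted p = 0.306) in normoxia.

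Among the 4 alpha chains, the share of Lama5 was higher in every KO library than in every flox library of the same oxygen level. Lama5 made up 57.7% ± 1.61 of the alpha chain RPKM in KO hypoxia libraries (SD, n = 4), against 42.3% ± 2.25 in flox hypoxia libraries (n = 3). In normoxia it made up 52.0% ± 0.707 in KO libraries, against 42.4% ± 1.92 in flox libraries (n = 3 each). The exact two-sided permutation p was 0.0571 in hypoxia and 0.1 in normoxia, the smallest that these group sizes allow. Lama2 made up 14.8% ± 0.931 in KO hypoxia libraries, against 22.6% ± 2.75 in flox hypoxia libraries, and 19.4% ± 1.20 in KO normoxia libraries, against 24.7% ± 1.57 in flox normoxia libraries.

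**Figure D2:**
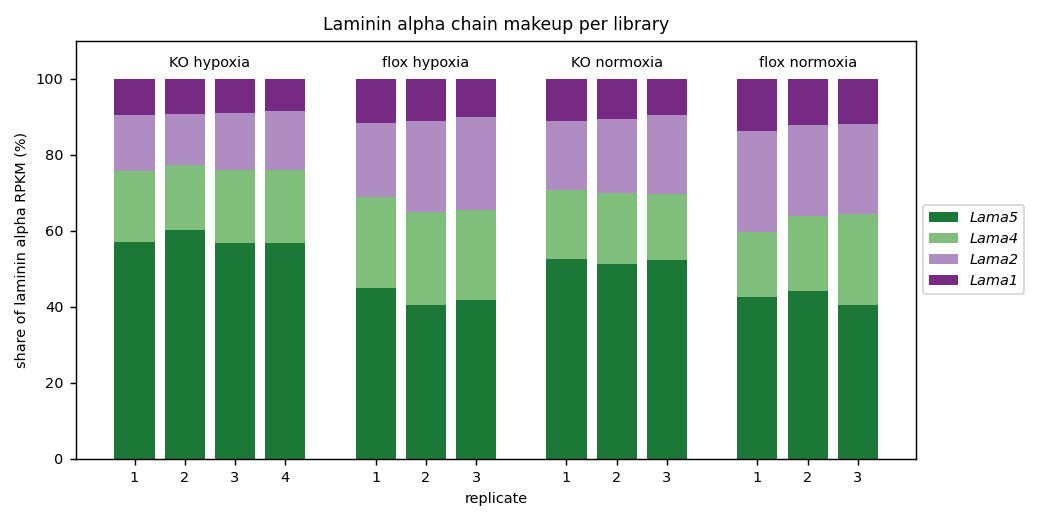
Share of the summed RPKM of the 4 laminin alpha chain genes (y axis, percent) taken by each gene in every library (x axis, replicate numbers within the 4 groups). Lama5 takes between 56.8% and 60.1% in KO hypoxia, against between 40.5% and 44.8% in flox hypoxia, and between 51.2% and 52.5% in KO normoxia, against between 40.4% and 44.2% in flox normoxia.

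Among the beta chains, Lamb2 rose by 0.88 ± 0.10 (SE, edgeR adjusted p = 3.86e-05) in hypoxia and 0.49 ± 0.10 (SE, edgeR adjusted p = 0.0156) in normoxia. Lamb1, the other beta chain, had 0.30 ± 0.07 (SE, edgeR adjusted p = 0.0114) in hypoxia, where it was called, and 0.09 ± 0.07 (SE, edgeR adjusted p = 0.652) in normoxia. Lamb2 RPKM over Lamb1 RPKM was between 2.75 and 3.38 in KO hypoxia libraries, against between 1.81 and 2.27 in flox hypoxia libraries. In normoxia it was between 2.24 and 3.05 in KO libraries, against between 1.80 and 2.06 in flox libraries, with the smallest possible exact permutation p in both conditions (0.0571 and 0.1). Of the gamma chains, Lamc3 rose by 0.78 ± 0.13 (SE, edgeR adjusted p = 0.000861) in hypoxia and 0.79 ± 0.13 (SE, edgeR adjusted p = 0.00394) in normoxia, nearly equal sizes. The widely used gamma chain Lamc1 rose in hypoxia by 0.49 ± 0.10 (SE, edgeR adjusted p = 0.00373) and had 0.18 ± 0.10 (SE, edgeR adjusted p = 0.48) in normoxia.

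Nidogens link the laminin and collagen IV networks. Nid1 had 40.1, 22.8, 29.8 and 22.4 CPM in KO hypoxia libraries, against 12.3, 10.1 and 11.4 CPM in flox hypoxia libraries. At 21% oxygen Nid1 had 19.5, 17.7 and 18.2 CPM in KO libraries, against 8.38, 10.1 and 11.5 CPM in flox libraries. Every KO library was above every flox library. Nid1 rose by 1.35 ± 0.17 (SE, edgeR adjusted p = 0.000123) in hypoxia and 0.88 ± 0.18 (SE, edgeR adjusted p = 0.0145) in normoxia, and Nid2 rose by 0.69 ± 0.12 (SE, edgeR adjusted p = 0.00164) and 0.55 ± 0.13 (SE, edgeR adjusted p = 0.0376). In hypoxia Hspg2 stood at 67.01, 36.9, 49.9 and 34.0 CPM in KO libraries, against 22.1, 19.7 and 27.1 CPM in flox libraries. In normoxia Hspg2 had 22.9, 25.7 and 24.1 CPM in KO libraries, against 15.8, 12.9 and 18.1 CPM in flox libraries. The genotypes did not overlap within an oxygen level, yet flox hypoxia and KO normoxia covered similar values. Hspg2, which encodes the heparan sulfate proteoglycan perlecan, had 1.04 ± 0.19 (SE, edgeR adjusted p = 0.00238) in hypoxia and 0.63 ± 0.20 (SE, edgeR adjusted p = 0.146) in normoxia, where it was not called. Agrn, which encodes agrin and is also made by neurons and astrocytes, had the lowest log2 fold change of the 41 genes in hypoxia, -0.06 ± 0.05 (SE, edgeR adjusted p = 0.483), and -0.09 ± 0.05 (SE, edgeR adjusted p = 0.447) in normoxia.

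Small leucine-rich proteoglycans bind collagen fibres and set their spacing. All 4 genes rose in KO brains in hypoxia, with a median of 0.95, and none passed the test in normoxia, with a median of 0.24. The hypoxia count was 2 without flox hypoxia replicate 2, and the normoxia count was 1 without KO hypoxia replicate 1. When fitted to the 9 libraries with Y-linked transcripts, the hypoxia calls of Dcn (edgeR adjusted p = 0.0984) and Lum (edgeR adjusted p = 0.12) were lost.

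Dcn had 33.2, 23.3, 29.2 and 30.4 CPM in KO hypoxia libraries, against 21.0, 20.5 and 21.1 CPM in flox hypoxia libraries. At 21% oxygen Dcn had 30.8, 22.5 and 29.3 CPM in KO libraries, against 24.7, 25.7 and 26.0 CPM in flox libraries. Dcn, which encodes decorin, was lowest in flox hypoxia, and the normoxia groups overlapped. Its log2 fold change was 0.48 ± 0.11 (SE, edgeR adjusted p = 0.0123) in hypoxia and 0.11 ± 0.12 (SE, edgeR adjusted p = 0.751) in normoxia. In hypoxia Bgn stood at 38.97, 19.6, 23.7 and 20.3 CPM in KO libraries, against 12.0, 13.1 and 13.2 CPM in flox libraries. In normoxia Bgn had 18.5, 20.5 and 19.6 CPM in KO libraries, against 13.6, 14.5 and 15.2 CPM in flox libraries. For Bgn, which encodes biglycan, the KO libraries lay above the flox libraries in both conditions. Bgn had a log2 fold change of 1.01 ± 0.18 (SE, edgeR adjusted p = 0.00196) in hypoxia and 0.44 ± 0.19 (SE, edgeR adjusted p = 0.311) in normoxia.

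Lum had 3.71, 2.58, 4.43 and 3.70 CPM in KO hypoxia libraries, against 1.76, 1.37 and 2.65 CPM in flox hypoxia libraries. At 21% oxygen Lum had 2.86, 2.82 and 2.74 CPM in KO libraries, against 2.84, 2.90 and 2.74 CPM in flox libraries. Lum, which encodes lumican, overlapped between genotypes through 1 library in hypoxia and fully in normoxia. Its log2 fold change was 0.91 ± 0.20 (SE, edgeR adjusted p = 0.00874) in hypoxia and -0.01 ± 0.21 (SE, edgeR adjusted p = 0.993) in normoxia. Ogn, which encodes osteoglycin, rose in hypoxia by 0.99 ± 0.17 (SE, edgeR adjusted p = 0.0014) and had 0.36 ± 0.17 (SE, edgeR adjusted p = 0.387) in normoxia.

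Elastic fibres consist of elastin on fibrillin microfibrils, and the lysyl oxidases crosslink elastin and collagens. Of these 8 genes, 5 rose in hypoxia and none passed the test in normoxia, with medians of 0.98 and 0.41. The hypoxia count was 3 without flox hypoxia replicate 1, and the normoxia count was 3 and 1 without KO hypoxia replicates 1 and 2. Lox, the founding lysyl oxidase, had the largest log2 fold change of the 41 genes in either condition and the lowest level in flox brains. In hypoxia Lox stood at 5.95, 1.33, 2.99 and 1.86 CPM in KO libraries, against 0.444, 0.707 and 0.287 CPM in flox libraries. In normoxia Lox had 1.97, 1.497 and 1.42 CPM in KO libraries, against 0.503, 0.549 and 0.599 CPM in flox libraries. The genotypes were apart in both conditions, but the KO hypoxia values spread widely. Lox had 2.65 ± 0.45 (SE, edgeR adjusted p = 0.0014) in hypoxia and 1.56 ± 0.46 (SE, edgeR adjusted p = 0.106) in normoxia, and without KO hypoxia replicate 1 the value in hypoxia was 2.10 ± 0.33 (SE).

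Loxl2 had 7.89, 2.72, 4.15 and 4.01 CPM in KO hypoxia libraries, against 1.22, 0.707 and 1.15 CPM in flox hypoxia libraries. At 21% oxygen Loxl2 had 1.88, 1.58 and 1.95 CPM in KO libraries, against 0.592, 0.691 and 1.27 CPM in flox libraries. Loxl2, a relative that crosslinks collagen IV, was higher in every KO library. Its log2 fold change was 2.20 ± 0.34 (SE, edgeR adjusted p = 0.000676) in hypoxia, and 1.82 ± 0.27 without KO hypoxia replicate 1, and 1.06 ± 0.37 (SE, edgeR adjusted p = 0.186) in normoxia. Loxl1, which acts on elastin, rose in hypoxia by 1.18 ± 0.27 (SE, edgeR adjusted p = 0.0118) and had 0.92 ± 0.29 (SE, edgeR adjusted p = 0.131) in normoxia.

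In hypoxia Eln stood at 21.8, 11.6, 15.0 and 14.7 CPM in KO libraries, against 7.89, 8.74 and 9.96 CPM in flox libraries. In normoxia Eln had 12.4, 11.2 and 10.3 CPM in KO libraries, against 9.37, 9.90 and 14.4 CPM in flox libraries. Elastin itself was thus apart between genotypes in hypoxia and overlapped in normoxia. Eln had a log2 fold change of 0.83 ± 0.18 (SE, edgeR adjusted p = 0.0092) in hypoxia and 0.01 ± 0.19 (SE, edgeR adjusted p = 0.994) in normoxia. Emilin1, a glycoprotein of the elastic fibre surface, rose in hypoxia by 1.13 ± 0.20 (SE, edgeR adjusted p = 0.00209) and had 0.58 ± 0.21 (SE, edgeR adjusted p = 0.224) in normoxia. Fbn1, which encodes fibrillin, missed the threshold in hypoxia at 0.40 ± 0.12 (SE, edgeR adjusted p = 0.0523), and Fbln1, a fibulin, did so at 0.58 ± 0.20 (SE, edgeR adjusted p = 0.0784). In normoxia they had -0.04 ± 0.13 (SE, edgeR adjusted p = 0.949) and 0.25 ± 0.20 (SE, edgeR adjusted p = 0.656). Fbln2 had 13.9, 11.6, 14.3 and 12.5 CPM in KO hypoxia libraries, against 11.7, 10.5 and 12.1 CPM in flox hypoxia libraries. At 21% oxygen Fbln2 had 11.3, 13.8 and 13.4 CPM in KO libraries, against 11.1, 12.1 and 12.5 CPM in flox libraries. Fbln2, another fibulin, overlapped in both conditions and was not called, at 0.19 ± 0.09 (SE, edgeR adjusted p = 0.228) in hypoxia and 0.11 ± 0.10 (SE, edgeR adjusted p = 0.689) in normoxia.

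All 3 of the remaining glycoproteins rose in hypoxia, and Fn1 and Mmrn2 also rose in normoxia. Fn1 encodes fibronectin, a ligand of integrins that is abundant in growing vessels. In hypoxia Fn1 stood at 489, 274, 311 and 249 CPM in KO libraries, against 83.3, 77.4 and 86.2 CPM in flox libraries. In normoxia Fn1 had 185, 200.3 and 179 CPM in KO libraries, against 68.6, 67.5 and 69.8 CPM in flox libraries. No KO library came near the flox range. Fn1 rose by 2.01 ± 0.17 (SE, edgeR adjusted p = 6.06e-06) in hypoxia and 1.46 ± 0.17 (SE, edgeR adjusted p = 0.000273) in normoxia. Mmrn2 had 20.9, 11.7, 14.4 and 11.5 CPM in KO hypoxia libraries, against 4.59, 4.48 and 5.14 CPM in flox hypoxia libraries. At 21% oxygen Mmrn2 had 8.68, 9.19 and 8.35 CPM in KO libraries, against 3.61, 3.17 and 3.01 CPM in flox libraries. Mmrn2, an endothelial matrix glycoprotein of the emilin family, was likewise apart. It rose by 1.63 ± 0.17 (SE, edgeR adjusted p = 3.35e-05) in hypoxia and 1.43 ± 0.19 (SE, edgeR adjusted p = 0.000563) in normoxia. Fn1 and Mmrn2 were called in normoxia in all 13 fits that leave out 1 library and in all 12 other alternatives.

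In hypoxia Mgp stood at 52.5, 24.0, 25.1 and 27.6 CPM in KO libraries, against 12.4, 13.6 and 12.9 CPM in flox libraries. In normoxia Mgp had 22.2, 17.9 and 16.6 CPM in KO libraries, against 13.3, 14.6 and 12.5 CPM in flox libraries. Mgp, which encodes a BMP-binding inhibitor of calcification found in vessel walls, did not overlap between genotypes. Its log2 fold change was 1.32 ± 0.22 (SE, edgeR adjusted p = 0.00108) in hypoxia, and 0.98 ± 0.10 without KO hypoxia replicate 1, and 0.49 ± 0.23 (SE, edgeR adjusted p = 0.36) in normoxia. Fn1 ranked first of the 41 genes by mean RPKM in KO hypoxia (28.6) and second in KO normoxia (16.0), against sixth in flox hypoxia (6.99) and seventh in flox normoxia (5.83). Agrn was first in the other 3 groups, at between 28.1 and 29.9 RPKM. Lox and Loxl2 held the lowest 2 places in flox hypoxia, KO normoxia and flox normoxia, at between 0.0995 and 0.340 RPKM.

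**Figure D3:**
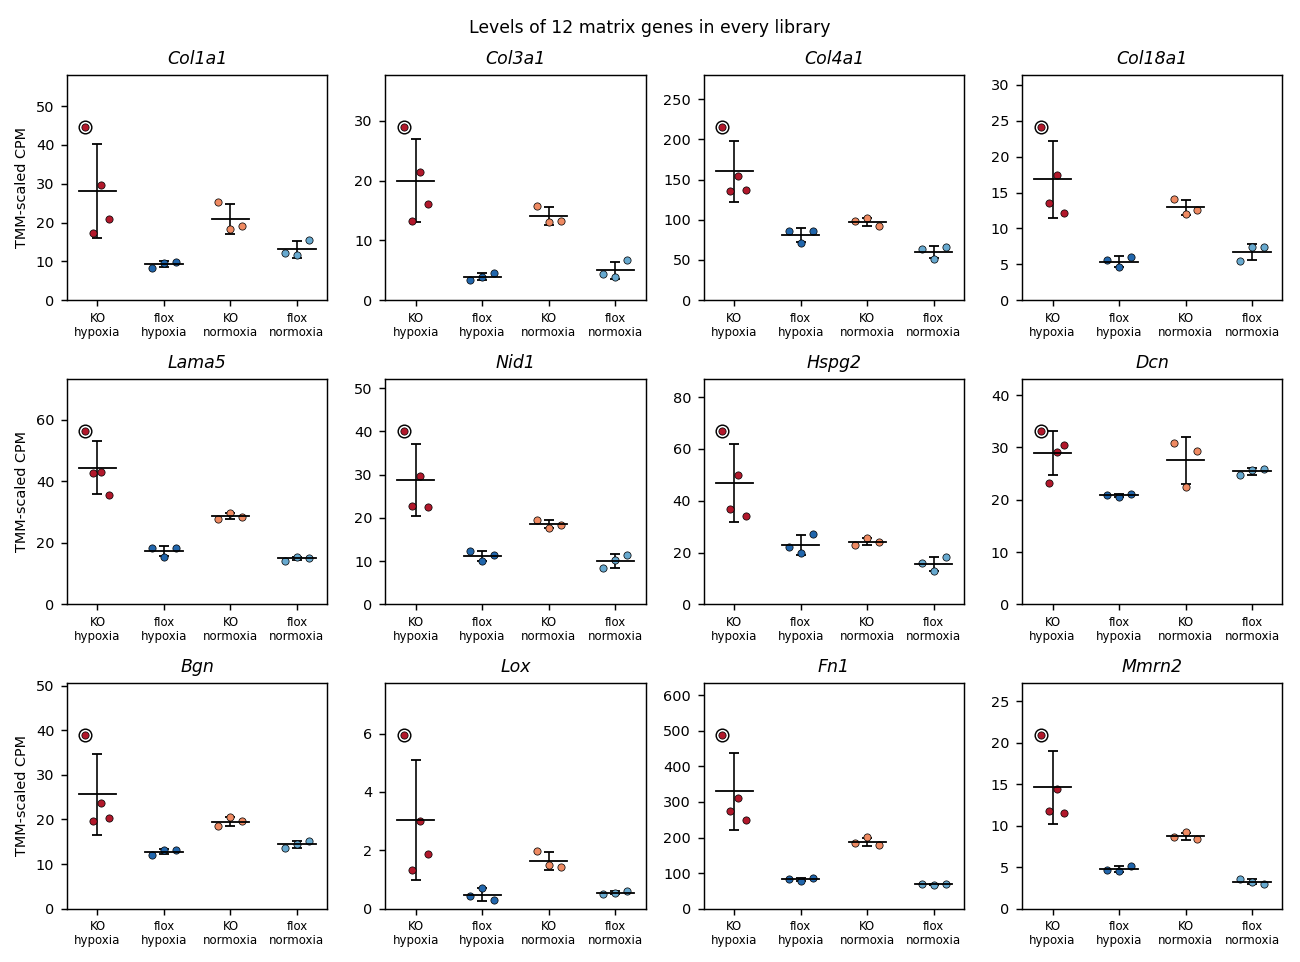
TMM-scaled CPM (y axes, from 0) of 12 matrix genes in every library, by group (x axes). Horizontal lines are group means, bars are SD, and the ringed point is KO hypoxia replicate 1. KO lies above flox at both oxygen levels in 11 of the 12 panels, while Dcn overlaps in normoxia. The 12 genes are a selection and do not stand for the whole set. Over all 41 matrix genes, every KO library lies above every flox library for 31 in hypoxia and for 23 in normoxia. Of all genes tested, 11.5% do so in hypoxia and 10.5% in normoxia.

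The next question was what 7 days of hypoxia changed within each genotype. In KO brains 8 of the 41 genes rose in hypoxia and none fell, beside 0.622% and 0.275% of all genes tested. In flox brains none passed the test, beside 0.0222% of all genes that rose and 0% that fell. Of the 8 genes in KO, 6 were of the basement membrane, and the others were Fn1 and Mmrn2. The largest were Hspg2 with 0.96 ± 0.19 (SE, edgeR adjusted p = 0.0308), Fn1 with 0.81 ± 0.16 (SE, edgeR adjusted p = 0.0306) and Mmrn2 with 0.75 ± 0.16 (SE, edgeR adjusted p = 0.0453). The others were Nid2 (0.73 ± 0.12, adjusted p = 0.0154), Col4a1 (0.72 ± 0.13, adjusted p = 0.0282), Lama5 (0.63 ± 0.11, adjusted p = 0.023), Col4a2 (0.51 ± 0.11, adjusted p = 0.045) and Lamb2 (0.43 ± 0.09, adjusted p = 0.0447), as log2 fold changes with SE.

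These calls rested on few libraries. The count was 0 when any one of the 3 KO normoxia libraries was left out, 7 without KO hypoxia replicate 1, 13 without KO hypoxia replicate 2 and 4 without KO hypoxia replicate 3. It was 3, 5 and 5 without flox hypoxia replicates 1, 2 and 3, which enter only through the shared spread. Without any one KO normoxia library, the basement membrane and glycoprotein counts were both 0. Fitted to the KO libraries alone it was 0, and with DESeq2 it was 15. Per library, the hypoxia values lay above the normoxia values without overlap for 15 genes in KO, where 6.59% of all genes did so, and below for none, where 6.04% did so.

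In flox brains, 8 of the 41 genes had an unadjusted p under 0.05 in edgeR, beside 1497 of the 22507 genes tested. DESeq2 called 1 (Nid2) and limma called none. The fit without a filter on low counts called Nid2, Col4a1 and Hspg2. Every flox hypoxia library lay above every flox normoxia library for 8 genes, where 6.56% of all genes did so: Col4a1, Col4a2, Lama4, Lama5, Nid2, Hspg2, Fn1 and Mmrn2. Every one lay below for 6, where 5.98% did so: Col1a1, Col6a1, Dcn, Lum, Ogn and Bgn. The median log2 fold change was 0.11 for the basement membrane, -0.33 for the fibrillar collagens and -0.33 for the small proteoglycans. In KO the medians of the same subclasses were 0.41, 0.32 and 0.31. No fibrillar collagen or small proteoglycan was called in either genotype. The KO values of both subclasses were smaller without KO hypoxia replicate 1. They then ran from 0.10 (Col1a2) to 0.28 (Col3a1) for the fibrillar collagens. For the small proteoglycans they ran from 0.007 (Dcn) to 0.35 (Lum).

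**Figure D4:**
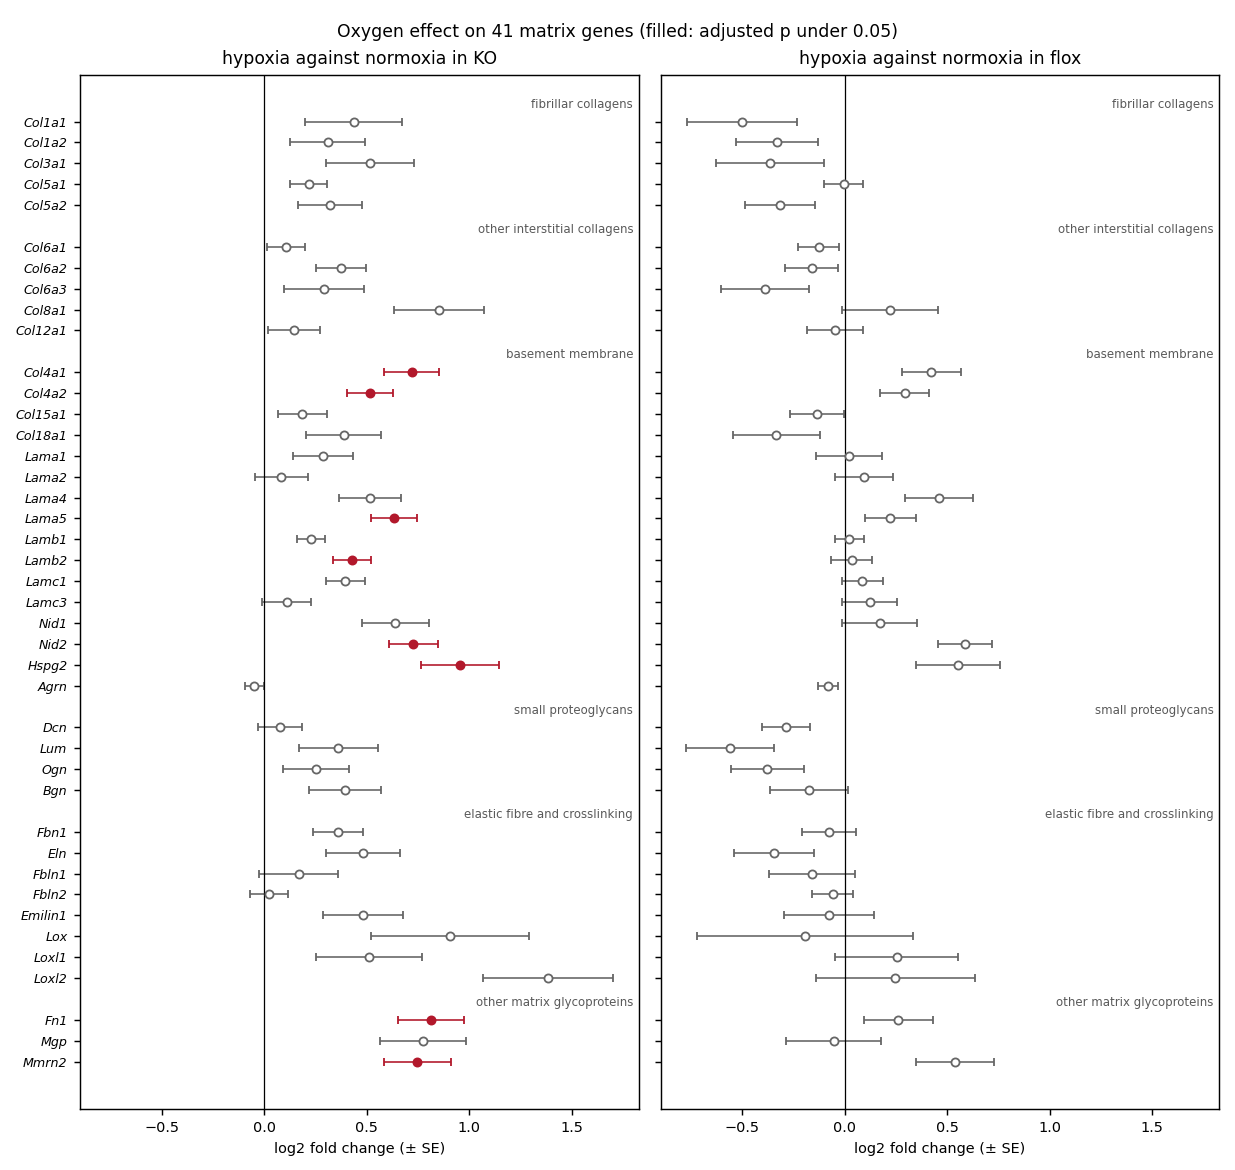
Log2 fold changes of hypoxia over normoxia (x axis, with SE bars) for the 41 matrix genes (y axis, by subclass), in KO brains (left panel) and in flox brains (right panel). Filled points passed an edgeR adjusted p of 0.05, 8 in KO and none in flox. All 5 fibrillar collagens and all 4 small proteoglycans lie left of 0 in flox and right of 0 in KO, but none of these points is filled.

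For 22 genes the oxygen log2 fold change was negative in flox and positive in KO, and how many of all genes did so was not counted. It was positive for 18 of the 41 genes in flox and 40 in KO, beside 11118 and 11812 of the 22507 genes tested. Some of these values lay near 0. Without KO hypoxia replicate 1, Lama2, Col12a1, Lamc3 and Fbln2 were at -0.06, -0.03, -0.02 and -0.007 in KO. In that fit Fbln1 and Dcn were at 0.001 and 0.007. Whether the knockout effect itself differed between hypoxia and normoxia was tested by the interaction. None of the 41 genes passed it, beside 0% of all genes. Unadjusted p values under 0.05 were given by edgeR for 19 of the 41 genes and for 1635 of the 22507 genes tested. DESeq2 and limma called none of the 41 genes, and the edgeR fit without a filter called 5 (Col1a1, Col6a2, Eln, Fn1 and Mgp). The median interaction was 0.40 over the 41 genes, and 0.29 without KO hypoxia replicate 1. In the fit of all 13 libraries the largest was 1.14, in the elastic fibre and crosslinking subclass, and it was not called. The genes named next are examples with smaller values. Lum had 0.92 ± 0.29 (SE, edgeR adjusted p = 0.607), Col1a1 0.94 ± 0.36 (SE, edgeR adjusted p = 0.625), Eln 0.83 ± 0.27 (SE, edgeR adjusted p = 0.625) and Mgp 0.83 ± 0.31 (SE, edgeR adjusted p = 0.625). A larger knockout effect in hypoxia was thus not shown for any of the 41 genes at this threshold.

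Markers of the cells that make these proteins moved as well. The marker counts stand beside 6.78% of all genes tested that rose and 2.28% that fell in hypoxia. In normoxia these shares were 1.96% and 0.369%. Of 18 pan-endothelial markers, 18 rose in KO in hypoxia and 17 in normoxia, with medians of 1.03 and 1.00, and their sum was between 675 and 1034 CPM in KO hypoxia libraries, against between 345 and 392 CPM in flox hypoxia libraries. In normoxia it was between 516 and 588 CPM in KO libraries, against between 264 and 293 CPM in flox libraries. Of 11 pericyte markers 9 rose in hypoxia and 7 in normoxia, with sums between 443 and 584 CPM in KO hypoxia, against between 291 and 296 CPM in flox hypoxia, and between 381 and 407 CPM in KO normoxia, against between 221 and 256 CPM in flox normoxia. Smooth muscle markers had 1 of 7 higher in hypoxia (Acta2) and none in normoxia. All 7 log2 fold changes were positive in both, with medians of 0.52 and 0.18. In edgeR 5 of the 7 had an unadjusted p under 0.05 in hypoxia and 0 in normoxia. The smooth muscle sum was between 32.3 and 47.1 CPM in KO hypoxia, against between 24.9 and 26.8 CPM in flox hypoxia, without overlap. In normoxia the sums overlapped, between 29.2 and 31.8 CPM in KO, against between 25.3 and 29.99 CPM in flox.

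Markers of meningeal and perivascular fibroblasts, the cells that make collagen I and the small proteoglycans, had 5 of 15 higher in hypoxia and 2 of 15 in normoxia. Their sum was between 83.3 and 129 CPM in KO hypoxia libraries, against between 76.4 and 86.0 CPM in flox hypoxia libraries, which overlap. In normoxia it was between 85.0 and 112 CPM in KO libraries, against between 83.3 and 93.0 CPM in flox libraries, which also overlap. None of the 15 fibroblast markers averaged 0 in any group. The lowest was the transporter Slc22a2, with group means between 0.366 and 0.576 CPM. Border macrophage markers had 5 of 6 higher in hypoxia and 1 of 6 in normoxia. Their sums were low but apart, between 15.8 and 29.2 CPM in KO hypoxia, against between 8.22 and 8.47 CPM in flox hypoxia. In normoxia they were between 14.3 and 18.5 CPM in KO, against between 10.4 and 11.7 CPM in flox. Microglia markers had 6 of 8 higher in hypoxia and none called in normoxia, with sums between 326 and 412 CPM in KO hypoxia, against between 270.3 and 284 CPM in flox hypoxia, and between 311 and 324 CPM in KO normoxia, against between 270.1 and 284 CPM in flox normoxia. Astrocyte markers had 3 of 9 higher and 1 lower in hypoxia, and 1 higher and 1 lower in normoxia. Gfap, an intermediate filament of reactive astrocytes, had a log2 fold change of 1.67 ± 0.15 (SE, edgeR adjusted p = 8.43e-06) in hypoxia and 1.43 ± 0.15 (SE, edgeR adjusted p = 0.000132) in normoxia. It had the largest value of the 9 markers, which ran down to -0.40 in hypoxia and -0.45 in normoxia. The medians of the 9 were 0.11 and 0.08. The astrocyte sum was between 4714 and 5872 CPM in KO hypoxia, against between 4754 and 4780 CPM in flox hypoxia, and between 5447 and 5653 CPM in KO normoxia, against between 4946 and 5217 CPM in flox normoxia. Of 7 neuron markers 1 was called lower in hypoxia (Map2) and none in normoxia. In hypoxia all 7 log2 fold changes were negative, with a median of -0.09, and edgeR gave 4 of them an unadjusted p under 0.05. The neuron sum was between 6791 and 6988 CPM in KO hypoxia, against between 7349 and 7572 CPM in flox hypoxia. In normoxia it was between 7276 and 7646 CPM in KO, against between 7078 and 7443 CPM in flox, which overlap. Of 10 choroid plexus markers none was called in either condition, where 1 and 2 had an unadjusted p under 0.05 in hypoxia and normoxia. None of these marker genes is among the 41, and their part in the matrix values was not tested. All 5 erythroid markers also rose in KO in both conditions, with sums between 3408 and 17392 CPM in KO hypoxia, against between 448 and 670.2 CPM in flox hypoxia, and between 973 and 1700 CPM in KO normoxia, against between 139 and 261 CPM in flox normoxia.

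**Figure D5:**
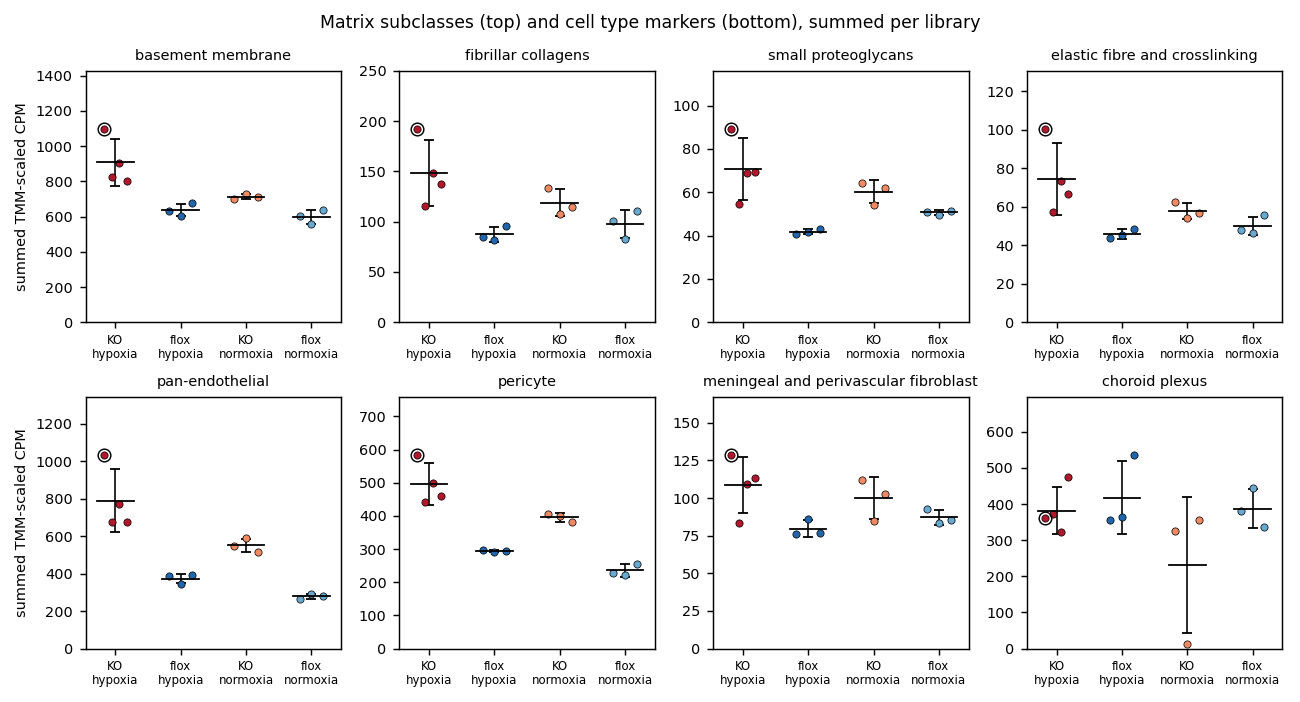
Summed TMM-scaled CPM (y axes, from 0) per library of 4 matrix subclasses (top) and 4 cell type marker lists (bottom), by group (x axes). Lines are group means, bars are SD and the ringed point is KO hypoxia replicate 1. Endothelial and pericyte sums are apart between KO and flox, while fibroblast sums overlap and 1 KO normoxia library is near 0 for choroid plexus.

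Genes that act on the matrix, and further matrix genes, were counted in 5 lists, with values as log2 fold change ± SE. Of all genes tested, 6.78% rose and 2.28% fell in hypoxia, and 1.96% rose and 0.369% fell in normoxia. Enzymes and chaperones of collagen processing had 9 of 25 higher in KO and none lower in hypoxia, and 4 higher and 1 lower in normoxia. The lysyl oxidase Loxl4 rose by 1.93 ± 0.41 in hypoxia and 1.82 ± 0.45 in normoxia, and the transglutaminase Tgm2 by 1.45 ± 0.18 and 0.86 ± 0.19. Bmp1, which cleaves procollagen, fell in normoxia (-0.25 ± 0.05). The most abundant genes that were not called included Mia3, which helps procollagen leave the endoplasmic reticulum, at -0.06 ± 0.04 in hypoxia, and the collagen-binding Sparc, at 0.21 ± 0.10 in normoxia. Pxdn, which crosslinks collagen IV, had -0.04 ± 0.05 in hypoxia.

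Matrix receptors had 8 of 26 higher in hypoxia and 3 in normoxia, beside 6.78% and 1.96% of all genes, with none lower. Bcam, a receptor of laminins with the alpha 5 chain, rose by 1.51 ± 0.17 in hypoxia and 1.14 ± 0.18 in normoxia. The syndecan Sdc1 rose in hypoxia (1.10 ± 0.30) and the collagen receptor Ddr2 in normoxia (0.57 ± 0.11). The abundant syndecan Sdc3 and the dystroglycan gene Dag1 were not called, at 0.05 ± 0.04 and 0.13 ± 0.04 in hypoxia.

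Of 23 proteases and inhibitors 18 were tested, and 8 rose and 1 fell in hypoxia, beside 6.78% and 2.28% of all genes. None passed in normoxia, where 5 had an unadjusted p under 0.05, beside 3053 of the 22507 genes tested. Plaur, the urokinase receptor, rose by 1.68 ± 0.31. Mmp17, a membrane-type metalloproteinase, fell in hypoxia (-0.27 ± 0.07), and the abundant inhibitor Timp2 was not called, at 0.05 ± 0.06. Of 30 other collagen and laminin chains, 5 (16.7%) rose and 2 fell in hypoxia, beside 6.78% and 2.28% of all genes. In normoxia none rose and 1 fell, beside 1.96% and 0.369%. Col14a1 (1.17 ± 0.26) and Col4a6 (1.13 ± 0.24) rose most in hypoxia, and Col11a2 fell by 0.49 ± 0.08 in hypoxia and 0.38 ± 0.09 in normoxia. Col24a1 fell in hypoxia (-0.43 ± 0.11).

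Neural matrix genes, those of the lectican and tenascin meshwork around neurons, had 2 of 16 higher and 1 lower in hypoxia and none called in normoxia, beside 6.78% higher and 2.28% lower of all genes in hypoxia and 1.96% and 0.369% in normoxia. The link protein Hapln1 had 0.31 ± 0.09, the receptor phosphatase Ptprz1 0.15 ± 0.04 and the proteoglycan Cspg5 -0.14 ± 0.04 in hypoxia. The lecticans Ncan and Bcan were not called, at 0.02 ± 0.09 and -0.05 ± 0.08 in hypoxia. The median log2 fold changes of the 5 lists in hypoxia were 0.16 for collagen processing, 0.21 for receptors, 0.35 for proteases and inhibitors, 0.11 for other chains and -0.07 for neural matrix, against 0.82 for the 41 genes.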

How the data were processed

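Per the labels, brain tissue of mice was homogenised for total RNA, and libraries were made with a stranded mRNA kit from RNA with an integrity number above 8.0. The authors deposited read counts for 55416 Ensembl genes and, in another table, their RPKM values. The submitters' processing notes name HISAT2, edgeR and GRCm39, with no versions or roles. What annotation and strand setting the counting used is not given in the sources used here. Each deposited RPKM value equals count over column total and 1 length per gene (relative range of that length at most 9.84e-15 over 35248 genes), with no composition factor. RPKM was used to compare levels between genes and in ratios.

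From the deposited counts, edgeR 4.0.16 (R 4.3.3) kept 22507 genes with filterByExpr, scaled by TMM, and fitted 1 mean per group to all 13 libraries with a quasi-likelihood model. Adjusted p is by Benjamini-Hochberg over all genes of a contrast, with a threshold of 0.05, and SE comes from the F statistic. CPM always means TMM-scaled CPM. Alternatives were DESeq2 1.42.0, limma 3.58.1 on log2 RPKM with a pseudocount of 1 or of 0.1, RLE scaling or none, no filter or one of 1 CPM in 3 libraries, a minimum fold of 1.5, the replicate number as block, an Xist term, fits without each library, fits of the compared libraries alone, and a fit of the 9 libraries that hold Y-linked transcripts. The edgeR fit of KO against flox was also run on simulated data. The simulation held no library set apart from its group, so it says nothing about the part of KO hypoxia replicate 1.

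The 41 genes, the pathway and marker lists and the rule for named genes were chosen with earlier results of these data known. By that rule, 24 genes and the 3 largest called changes of each contrast have values in every library. Other genes are given by fold change, and from each pathway list the 2 largest rises and falls among called genes and the 2 most abundant uncalled genes are named, for some in 1 condition only. For 1 gene that the rule names, the result is not reported here.

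Groups come from the sample titles. Replicates are separate animals only as far as the labels describe tissue from animals, and no batch or date is given. A count of 0 allows up to 3 counts, between 0.0428 and 0.0717 CPM, which covers counting error only. Libraries of 1 group differed by a chi-square per degree of freedom of at least 4.44. Symbols were found for 52083 identifiers, which hold 99.7% of counts. The reference build differs from the authors', so gene coordinates are given only for RefSeq promoter sequences.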

Additional observations from a re-analysis of the deposited data

Results flagged for a closer look

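In KO hypoxia, the highest library stood apart from the other 3 for 3 of the 41 genes, with a gap to the next library that exceeded Dixon's critical value for 4 samples. KO hypoxia replicate 1 was that library each time. Col12a1 was at 25.9 CPM there (gap 0.873 of the range), Fbn1 at 16.9 CPM (0.951) and Mgp at 52.5 CPM (0.875). Chance flags about 1 in 20 groups, and the other 38 genes were not flagged. The same library had the highest erythroid, endothelial and pericyte sums of its group, at 17392, 1034 and 584 CPM. The part of these in the 3 values was not tested.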

How the results depend on the processing

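Of 41 genes, 31 rose in KO in hypoxia, and between 25 and 33 did when 1 library was left out, but 10 passed a minimum fold of 1.5. The normoxia count of 10 became 20 with no filter on low counts, 6 with limma on log2(RPKM + 1), 2 with a minimum fold of 1.5 and 17 with only the libraries compared, and was between 5 and 18 when 1 library was left out. The count of 8 for hypoxia in KO became 20 with no filter, 15 with DESeq2, 1 and 0 with limma (pseudocounts 1 and 0.1), 0 with a minimum fold, 0 with only the libraries compared and 3 when fitted to the 9 libraries holding Y-linked transcripts, and was between 0 and 13 when 1 library was left out. The count of 0 for hypoxia in flox became 3 with no filter, 1 with DESeq2 and 1 in the 9 libraries, and stayed at 0 in each fit that left out 1 library. For the interaction, the fit with no filter called 5, and each fit that left out 1 library called 0. No log2 fold change of a called gene changed sign under these alternatives. With the replicate block the counts were 12 in normoxia, 32 in hypoxia, 0 for hypoxia in flox, 11 for hypoxia in KO and 0 for the interaction. The numbers share no stated litter or batch, and over 18 pairs of same-numbered libraries the correlation of deviations ran from -0.04 to 0.23, with 4 above 0.1, so they were not taken to pair the samples. The cause of these differences was not tested. Depth limits Lox and Loxl2 most, the lowest of the 41 genes in flox brains.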
